A study of Homo sapiens with 6 samples.

Results

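The protein-coding genes of chromosome 19 that encode C2H2 zinc finger proteins were followed across both groups of the study. They were taken as the rows that the deposited gene table assigns to the transcription factor family zf-C2H2, to chromosome 19 and to the biotype protein coding. This gave 267 genes, called members below, of 58735 rows in all. The members are 42.6% of the 627 protein-coding C2H2 rows of the table and 18.1% of the 1472 protein-coding rows of chromosome 19. RNA was sequenced from ARPE-19, an established human line of retinal pigment epithelial (RPE) cells, in 3 libraries labelled OE_CD51_ICD, whose genotype is given as CD51_ICD over expression, and in 3 libraries labelled NC, whose genotype is given as WT. ITGAV encodes CD51, an integrin alpha chain (alpha V). The labels name neither the vector or promoter that drove the overexpression nor a clone, and nothing in them ties the 3 replicates of a group to separate cultures, so p-values here rest on a spread between replicates that may be only technical.

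A C2H2 finger is a short loop of protein held by a zinc ion between a pair of cysteines and a pair of histidines, and fingers in tandem read the bases of DNA. Most human C2H2 genes of chromosome 19 lie in head-to-tail clusters that grew by duplication. Many encode a KRAB domain in front of the fingers, which binds the corepressor TRIM28 (also called KAP1). TRIM28 in turn brings SETDB1, which methylates histone H3 at lysine 9, and heterochromatin proteins such as CBX5. KRAB zinc finger proteins are known above all for silencing retrotransposons, and the bodies of their own genes carry the same heterochromatin.

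The reading frames of the members fitted the family label. Every one of the 266 members with a translated reading frame in the GENCODE 29 annotation held at least 1 C2H2 finger pattern, with a median of 12 and a highest number of 36 in ZNF208, which had no count in any library. The pattern is strict and passes over fingers with other spacing. A KRAB A-box pattern was found in 215 members and not in 51, and AC010422.6 had no translated frame. A narrower form of the pattern was found in 179, and the KRAB pattern below is the wider one unless said. Members with the KRAB pattern held a median of 13 fingers, against 7 in those without it.

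Sequences are shown for the one place where 4 neighbouring genes were all called higher in OE_CD51_ICD cells, namely ZNF224, ZNF225, ZNF234 and ZNF226, and for the promoters of the members with the largest fitted rise and one of the largest fitted falls, ZNF805 and ZNF324B. The choice was made after their values were seen. ZNF224, ZNF225 and ZNF805 were above the level of the low-count filter in every OE_CD51_ICD library but not in every NC library. Their NC libraries alone would not have let them be tested. The first set gives 1 finger of each neighbour with its linker, 78 bases read from the GRCh38 genome, with the cysteine and histidine codons in capitals. Each is the first finger in its reading frame that fits the strict pattern followed by the common linker. The fingers start at residues 206, 206, 262 and 365 in the order printed, so they were not matched by position among the fingers.
ZNF224 finger, chr19:44106776-44106853, plus strand: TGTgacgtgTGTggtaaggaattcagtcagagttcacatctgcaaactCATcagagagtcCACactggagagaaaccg
ZNF225 finger, chr19:44131230-44131307, plus strand: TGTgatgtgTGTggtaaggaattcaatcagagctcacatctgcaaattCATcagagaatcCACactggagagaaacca
ZNF234 finger, chr19:44156800-44156877, plus strand: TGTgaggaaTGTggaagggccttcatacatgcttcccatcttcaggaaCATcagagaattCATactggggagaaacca
ZNF226 finger, chr19:44176355-44176432, plus strand: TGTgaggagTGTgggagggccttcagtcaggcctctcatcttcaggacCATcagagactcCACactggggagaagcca
ZNF224 and ZNF225 shared 92.3% of the 78 bases, ZNF234 and ZNF226 shared 84.6%, and the remaining pairs shared between 70.5% and 76.9%. These shares hold for the printed fingers only. Where the fingers start at different residues, they do not measure how alike the genes are.

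The second set gives 6 promoters, from 250 bases before to 50 after the most upstream RefSeq start (GRCh38.p14), each 5′ to 3′. Capitals mark the matches found on the printed strand to ACTTCCG, the core that ETS family factors are known to bind, and to TTCTGGGAA, a stretch of the longer sequence that ZNF143 is known to bind. Both strands were searched for each, and the motifs do not overlap in these promoters.
ZNF224 promoter, chr19:44094111-44094410, plus strand: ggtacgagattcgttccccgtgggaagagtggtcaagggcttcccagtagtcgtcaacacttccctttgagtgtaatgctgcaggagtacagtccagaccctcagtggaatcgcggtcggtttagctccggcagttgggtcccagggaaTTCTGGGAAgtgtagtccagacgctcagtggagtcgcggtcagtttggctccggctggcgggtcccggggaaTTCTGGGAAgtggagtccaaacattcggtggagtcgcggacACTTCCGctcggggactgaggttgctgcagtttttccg
ZNF225 promoter, chr19:44113149-44113448, plus strand: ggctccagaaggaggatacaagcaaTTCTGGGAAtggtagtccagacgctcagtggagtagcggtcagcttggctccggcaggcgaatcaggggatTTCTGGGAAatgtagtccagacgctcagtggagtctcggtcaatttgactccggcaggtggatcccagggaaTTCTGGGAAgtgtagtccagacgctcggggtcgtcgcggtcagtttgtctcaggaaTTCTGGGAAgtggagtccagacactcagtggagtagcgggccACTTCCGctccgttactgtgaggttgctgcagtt
ZNF234 promoter, chr19:44141304-44141603, plus strand: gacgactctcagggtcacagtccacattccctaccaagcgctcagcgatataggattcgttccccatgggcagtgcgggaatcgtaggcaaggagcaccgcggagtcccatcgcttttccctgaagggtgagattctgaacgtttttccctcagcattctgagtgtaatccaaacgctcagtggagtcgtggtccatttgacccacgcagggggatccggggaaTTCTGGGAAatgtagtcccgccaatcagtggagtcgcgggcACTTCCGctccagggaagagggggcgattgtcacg
ZNF226 promoter, chr19:44164850-44165149, plus strand: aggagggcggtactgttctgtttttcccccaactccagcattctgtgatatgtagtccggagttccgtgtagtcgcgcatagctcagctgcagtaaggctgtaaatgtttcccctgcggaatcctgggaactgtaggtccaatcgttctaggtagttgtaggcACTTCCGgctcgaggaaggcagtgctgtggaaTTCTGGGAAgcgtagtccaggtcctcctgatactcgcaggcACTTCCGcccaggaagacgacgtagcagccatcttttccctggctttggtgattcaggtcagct
ZNF805 promoter, chr19:57240382-57240681, plus strand: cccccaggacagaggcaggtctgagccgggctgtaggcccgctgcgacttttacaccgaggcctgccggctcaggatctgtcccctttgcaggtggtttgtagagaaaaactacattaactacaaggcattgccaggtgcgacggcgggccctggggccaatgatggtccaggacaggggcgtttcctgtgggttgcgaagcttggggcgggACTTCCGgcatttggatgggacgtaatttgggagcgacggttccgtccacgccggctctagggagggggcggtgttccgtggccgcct
ZNF324B promoter, chr19:58451372-58451671, plus strand: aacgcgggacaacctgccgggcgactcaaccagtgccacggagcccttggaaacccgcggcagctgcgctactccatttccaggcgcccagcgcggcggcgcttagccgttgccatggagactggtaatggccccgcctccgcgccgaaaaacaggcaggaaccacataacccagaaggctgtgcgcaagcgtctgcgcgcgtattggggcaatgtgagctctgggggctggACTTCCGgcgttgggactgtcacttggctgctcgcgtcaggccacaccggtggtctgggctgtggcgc
RefSeq promoters were matched for 226 of the 267 members. ACTTCCG was present in 30.5% of them, against 20.1% of 279 promoters of C2H2 genes on other chromosomes and 9.78% of 15843 promoters of protein-coding genes. It was present in 41.3% of the 46 promoters of members called higher, in 3 of the 12 of members called lower and in 36.4% of the 110 of members tested and not called. TTCTGGGAA was present in 8.41% of the member promoters, against 4.66% of the C2H2 genes on other chromosomes and 1.07% of all. Both were present together in 11 member promoters, all of them in the cluster of ZNF224, and in 0.170% of all promoters. Of those 11 genes, 4 were called higher, 5 were tested and not called and 2 were not tested. A match is a run of letters and says nothing of whether a factor binds there.

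Library totals ran from 14577912 to 15640428 counts in OE_CD51_ICD and from 13616694 to 16934668 in NC. ITGAV had 448 ± 83.5 CPM in OE_CD51_ICD and 98.4 ± 12.9 CPM in NC (SD, n = 3 each), a log2 fold change of 2.18 with an edgeR adjusted p of 1.47e-16. CPM here is counts scaled to library size with TMM factors, and in a sum of CPM no gene length enters. Of the 12 listed RPE markers, 9 were tested, their summed level was 4628 to 5351 CPM in OE_CD51_ICD and 5163 to 5621 CPM in NC, and the defining markers RPE65, BEST1, LRAT and TYR were under 1 CPM, with RPE65 at 0. Of the 9 microglia and macrophage markers, all but CSF1R, 8 in number, were under 1 CPM, with C1QA and P2RY12 at 0. The list summed to 31.3 to 37.1 CPM in OE_CD51_ICD and 3.04 to 4.67 CPM in NC. Of the 7 fibroblast markers, all but PDGFRB, 6 in number, were under 1 CPM, with DCN at 0. That list summed to 375 to 415 CPM in OE_CD51_ICD and 213 to 238 CPM in NC. All 4 endothelial markers were under 1 CPM and summed to 0.501 to 1.57 CPM in OE_CD51_ICD and 2.08 to 2.83 CPM in NC, and the 4 neuronal markers summed to 4.01 to 7.65 CPM in OE_CD51_ICD and 4.53 to 5.44 CPM in NC. The part of these marker lists in the results below was not tested.

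The members as a group were weakly expressed. Together they took 0.132% to 0.142% of each OE_CD51_ICD library and 0.139% to 0.141% of each NC library. Their median level was 0.218 FPKM, a length-corrected level on a linear scale, and 9 of the 267 reached 10 FPKM. None of those 9 carried the KRAB pattern. The 5 highest were ZNF581 with 29.9 FPKM, ZNF358 with 29.3 FPKM, the Krüppel-like factor KLF16 with 19.96 FPKM, ZNF580 with 17.4 FPKM and ZNF787 with 14.8 FPKM, as means over all 6 libraries. Members with the KRAB pattern had a median of 0.189 FPKM and those without it a median of 1.53 FPKM.

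After the filter on low counts, 184 members entered the test and 83 did not. Of the 83, 21 had no count in any library and the other 62 held at most 75 counts over all 6 libraries. The untested members summed to 269, 376 and 250 counts in OE_CD51_ICD and to 285, 238 and 215 counts in NC. Of the 184 tested, 139 were above the filter's level of 0.681 CPM in every library of both groups, 24 in every OE_CD51_ICD library only, 3 in every NC library only and 18 in neither group throughout. The filter counts libraries over both groups together, so members above its level throughout only 1 group were not forced to differ in that direction. They could not have passed on the libraries of the other group alone, so their testing leaned on the group where they were above it throughout. Of the 48 rises described below 9 came from them, as did 1 of the 12 falls. The 9 were ZNF805, ZNF44, ZNF493, ZNF527, ZNF491, ZFP82, ZNF224, ZNF225 and ZNF565, and the fall was ZNF793.

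In OE_CD51_ICD cells 48 tested members rose and 12 fell, at an edgeR adjusted p under 0.05. As shares of the 184 tested members these are 26.1% and 6.52%, against 25.2% and 25.8% of all 13787 genes tested. In this fit the share of rises was near that of all genes, and the share of falls was below it. The median log2 fold change was 0.36 over the tested members and 0.01 over all genes. Of the C2H2 genes on other chromosomes, 69 of 268 tested rose and 34 fell, with a median of 0.22. Of the other protein-coding genes of chromosome 19, 77 of 677 tested rose and 350 fell, with a median of -0.30. Of the 184 tested members, 14 rose by at least 2-fold and 0 fell by as much. Over all 13787 genes tested, 950 rose and 804 fell by at least 2-fold, or 6.89% and 5.83%. The members' share of 2-fold rises was thus near that of all genes. Of the 14, ZNF805, ZNF44, ZNF493, ZNF527, ZNF491, ZFP82 and ZNF224 were above the filter's level throughout OE_CD51_ICD only. The count of 2-fold falls was also 0 at an unadjusted edgeR p under 0.05 and by DESeq2, and it was 1 by limma-voom. The libraries of the groups did not overlap in 62 members higher in OE_CD51_ICD and in 17 members lower, or 33.7% and 9.24% of the 184, against 28.0% and 29.5% of all genes.

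The second OE_CD51_ICD library stood apart in these genes. The median difference of the tested members from the NC mean was 0.29, 0.51 and 0.21 on the log2 scale in OE_CD51_ICD libraries 1, 2 and 3, while the NC libraries lay between -0.01 and 0.01. Since the NC libraries make up that mean, they lie around it by construction. Without OE_CD51_ICD replicate 2, 29 of 186 tested members rose and 8 fell, beside 3040 and 3098 of all 14065 genes. Without OE_CD51_ICD replicate 1, 34 of 192 tested members rose and the falls dropped to 5, beside 3071 and 2936 of all 14080 genes. Without OE_CD51_ICD replicate 3, 49 of 194 tested members rose and 13 fell, beside 3641 and 3654 of all 14124 genes. The members' rises of at least 2-fold then numbered 22, and those over all genes were not counted in that fit. With library size as the only scaling 39 of 184 members rose and 18 fell, beside 2896 and 4051 of all 13787 genes. DESeq2 called 25 rises and 7 falls among 219 members, beside 3021 and 3306 among 16206 genes. Its share of rises was thus below that of all genes. Of the 60 calls, 25 held whichever single library was left out, 20 of them rises and 5 of them falls. In bulk RNA, fewer cells that express a gene and less of its RNA per cell cannot be told apart.

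**Figure D1:**
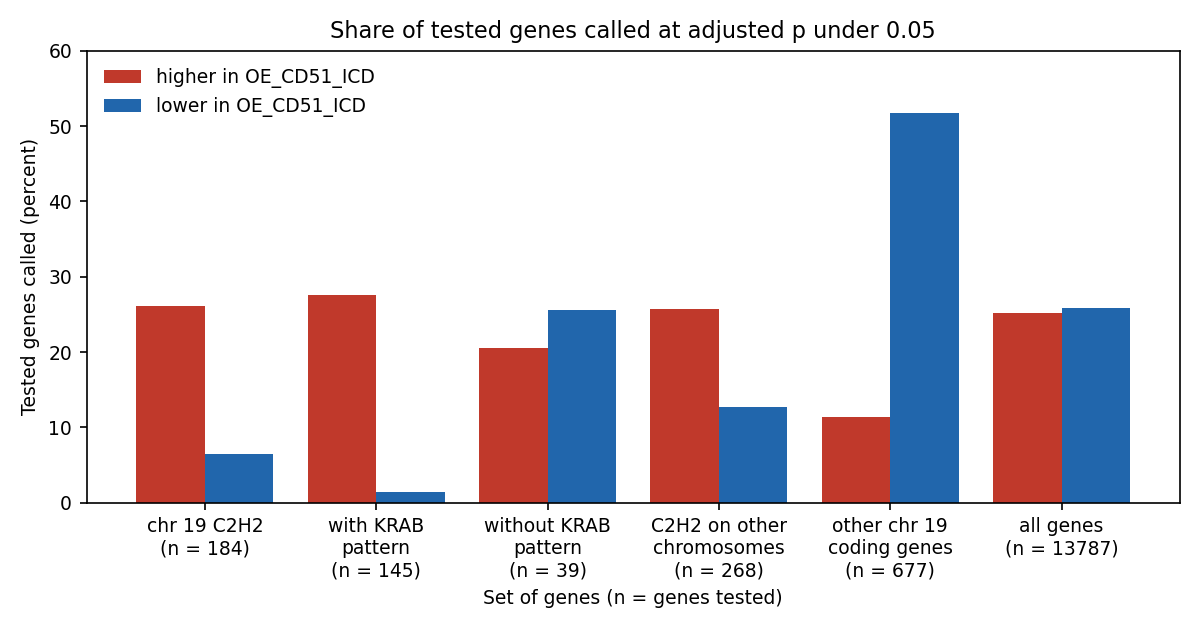
Percent of tested genes called higher (red) and lower (blue) in OE_CD51_ICD relative to NC at an adjusted p under 0.05, for the members, their subsets with and without the KRAB pattern, C2H2 genes on other chromosomes, the other coding genes of chromosome 19 and all genes. The members' bar for rises, at 26.1%, is near the 25.2% of all genes, and their bar for falls, at 6.52%, is below the 25.8% of all genes.

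The calls were counted separately in members with and without the KRAB pattern, and the difference between these sets was not tested. Of 145 tested members with the pattern 40 rose and 2 fell, ZNF793 and ZNF324B, with a median log2 fold change of 0.44. These are 27.6% and 1.38%, so the share of rises was near the 25.2% of all genes and the share of falls was below their 25.8%. Of 39 tested members without it 8 rose and 10 fell, or 20.5% and 25.6%, with a median of -0.05. By the narrower KRAB pattern, 33 of 123 tested members with it rose and 2 fell, with a median of 0.43. Of 61 without the narrower one 15 rose and 10 fell, with a median of 0.13. The sign of the median without a KRAB pattern thus depended on the pattern used. The narrower one misses members that hold the wider one, among them ZNF224, ZNF225, ZNF234 and ZNF226, and these count as without it. With each library's GC trend removed, 23 members with the pattern rose and 4 fell, and 7 without it rose and 5 fell. Over all 13787 genes 3100 then rose and 3803 fell. The summed level of the 215 members with the pattern was 569, 620 and 534 CPM in OE_CD51_ICD libraries, against 447, 468 and 461 CPM in NC libraries. The other 52 members summed to 794, 795 and 875 CPM in OE_CD51_ICD, against 916, 892 and 929 CPM in NC. The groups did not overlap in either sum, and the sums moved in opposite directions. Over all members the sums were 1363, 1415 and 1409 CPM in OE_CD51_ICD and 1363, 1360 and 1390 CPM in NC, which overlapped.

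**Figure D2:**
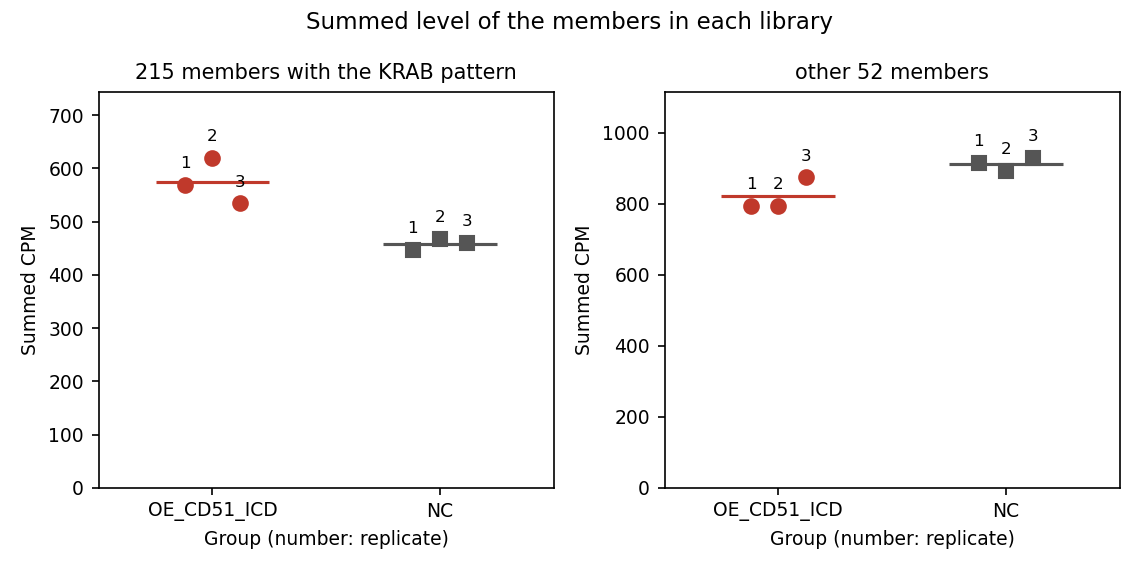
Summed CPM of the 215 members with the KRAB pattern (left) and of the other 52 members (right), 1 point per library with its replicate number, OE_CD51_ICD in red and NC in grey, lines at the group means. With the pattern, the OE_CD51_ICD libraries (534 to 620) lie above the NC libraries (447 to 468), and without it they lie below (794 to 875 against 892 to 929).

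GC content and level moved with this split. Of the 145 tested members with the pattern 107 had transcripts under 45% GC and 2 had transcripts at 55% or more, while 25 of the 39 without the pattern were at 55% or more. Among tested members under 45% GC, 38 of 116 rose and 1 fell, or 32.8% and 0.862%, against 35.0% and 11.2% of all 5010 genes in that range. At 55% GC or more, 2 of 27 members rose and 10 fell, or 7.41% and 37.0%, against 13.99% and 44.3% of 4088 genes. Of the 9 members without the pattern and under 45% GC, 4 rose and the other 5 were not called. Of the other protein-coding genes of chromosome 19, 12 tested genes were under 45% GC, of which 4 rose and 2 fell, and 571 were at 55% or more, of which 58 rose and 306 fell. Across the 184 members Spearman's rho between log2 fold change and GC was -0.35, and across 13781 genes it was -0.32, where genes share libraries and are not independent.

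The slope of the log2 difference from the NC mean on GC, over all genes and per 10 points of GC, was -0.18, -0.27 and -0.10 in OE_CD51_ICD libraries 1, 2 and 3 and lay between -0.03 and 0.04 in NC libraries. The NC slopes balance out by construction, because the NC libraries make up that mean. With each library's GC trend removed, 30 of the 184 members rose and 9 fell, beside 3100 and 3803 of all 13787 genes. The share of rises was then below that of all genes, as was the share of falls. Of the 48 rises 27 were kept, and of the 12 falls 6. The median became 0.20 over the tested members, beside -0.03 over all genes, 0.26 with the KRAB pattern and 0.11 without it, so the median without the pattern changed sign. By level, 33 of the 135 tested members under 5 CPM rose and 1 fell, or 24.4% and 0.741%, against 18.0% and 13.1% of all genes at that level. Between 5 and 20 CPM, 15 of 31 members rose and 5 fell, or 48.4% and 16.1%, against 27.4% and 20.1% of all genes. At 20 CPM or more, 6 of 18 members fell, or 33.3%, and 0 rose, against 37.2% and 28.3% of all genes. The count of rises there was 0 as well at an unadjusted edgeR p under 0.05, by DESeq2 and by limma-voom.

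**Figure D3:**
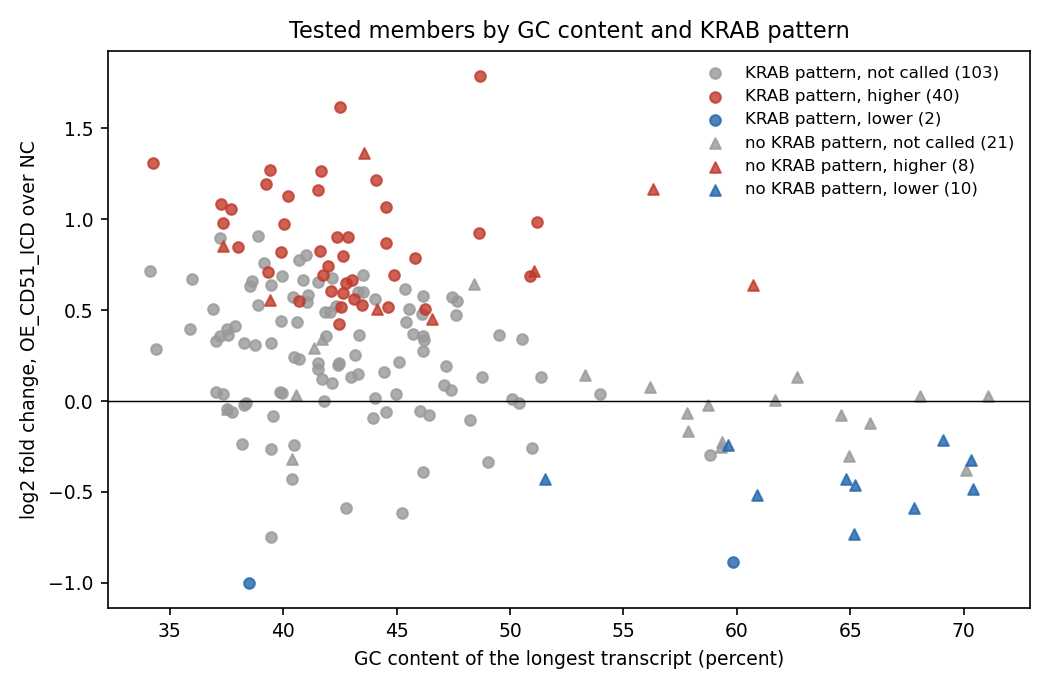
Log2 fold change, OE_CD51_ICD over NC, of the 184 tested members against the GC content of the longest transcript in percent, circles with the KRAB pattern and triangles without it, red called higher, blue called lower, grey not called. Red points crowd under 45% GC, where 38 members rose, and 10 of the 12 blue points lie at 55% GC or more.

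The calls were also counted by number of fingers that fit the strict pattern. Of 47 tested members with 15 or more fingers 14 rose and 2 fell, with a median log2 fold change of 0.51. Of 82 with 10 to 14 fingers 22 rose and the other 60 were not called, of 43 with 5 to 9 fingers 11 rose and 5 fell, and of 12 with fewer than 5 fingers 1 rose and 5 fell, with a median of -0.23. In the classes with 5 or more fingers the shares that rose were 29.8%, 26.8% and 25.6%, all near the 25.2% of all genes. A pattern with looser spacing gave another finger count in 65 members. By it TSHZ3, the 1 that rose in the lowest class, and ZNF653, which fell, each held 5 fingers. The classes were not tested against each other, and finger number, the KRAB pattern, GC content and level go together in these genes.

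Along the chromosome, members separated by at most 500 kb formed 9 clusters of at least 5 members, which held 249 of the 267, and the other 18 lay scattered. In all 9 clusters more members rose than fell and the median log2 fold change was positive. Numbered from the end of the short arm, clusters 1 and 5 each had only 1 rise among 4 tested members, and cluster 4 had 2 among 13. The share of tested members that rose ran from 15.4% to 44.4% over the clusters, around the 25.2% of all genes, and the share that fell ran from 0% to 10%, against 25.8% of all genes. With gaps of at most 250 kb there were 12 clusters, and in 1 of them more members fell than rose. With gaps of up to 1000 kb there were 9 clusters, 8 with more rises than falls and none with more falls than rises. Of 160 pairs of neighbouring tested members, both rose in 12, both fell in 1 and they were called in opposite directions in 2. These counts were not set against those that unrelated calls would give, so they do not show whether neighbours moved together. The pairs pass over untested members, and the widest gap was 1537 kb, between ZNF100 and ZNF91.

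**Figure D4:**
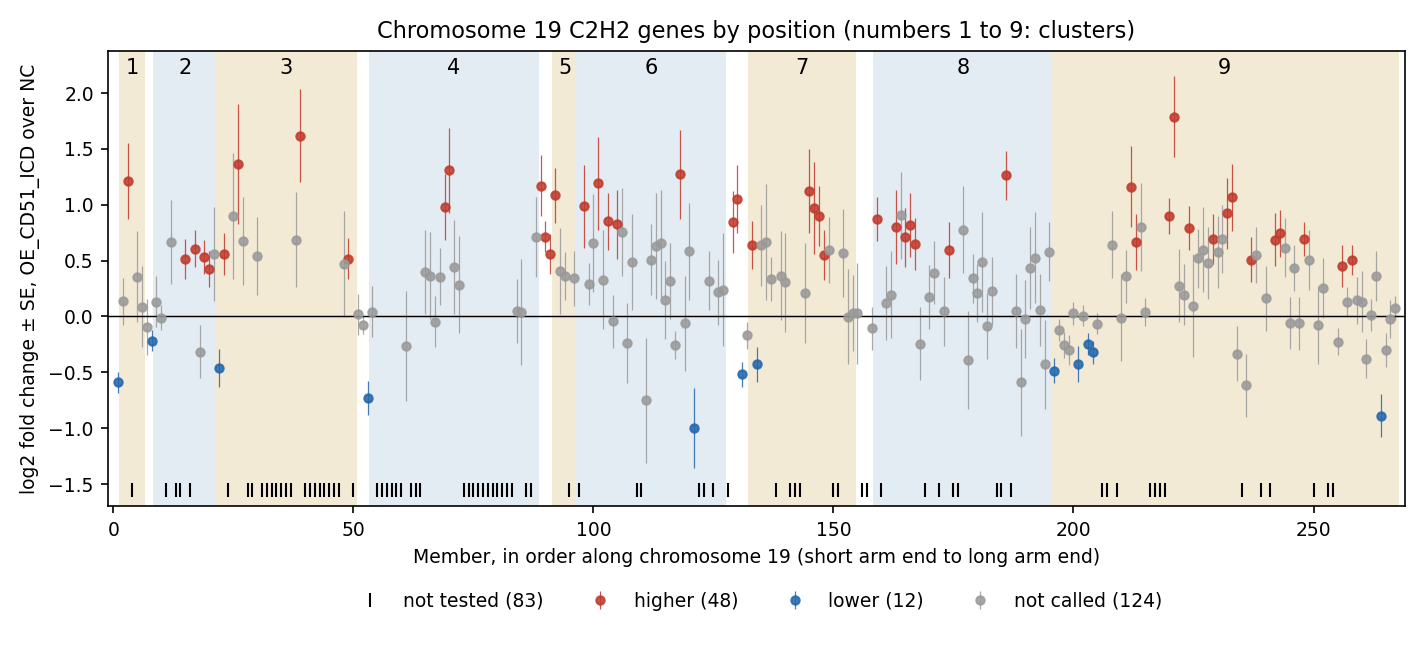
Log2 fold change with SE, OE_CD51_ICD over NC, of each tested member in order along chromosome 19, bands and numbers marking the 9 clusters, red called higher, blue called lower, grey not called, ticks at the bottom for the 83 members not tested. Red points occur in all 9 clusters, and 4 of the 12 blue points lie outside them.

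The largest fitted rise was that of ZNF805, a KRAB zinc finger gene at chr19:57240685-57255135. ZNF805, ZNF44, ZNF493 and ZNF527 are 4 of the 8 largest rises at a mean of 1 CPM or more. All 4 were above the filter's level in every OE_CD51_ICD library but not in every NC library. Their NC libraries alone would not have let them be tested, so their testing leaned on the group where they are high. ZNF805 had 2.30, 2.53 and 2.22 CPM in OE_CD51_ICD libraries, against 0.463, 0.708 and 0.879 CPM in NC libraries. All OE_CD51_ICD values lay above all NC values, and the fold was 3.45 (log2 1.79, SE 0.36, edgeR adjusted p = 0.000127). With the GC trend removed it was still called higher, as it was in every other setting tried. ZNF805 shared 7.37% of its 50-base stretches with other genes, first among them ZNF543. Its neighbour ZNF264, named here after its values were seen, had 15.7, 21.2 and 15.9 CPM in OE_CD51_ICD and 7.93, 10.6 and 9.87 CPM in NC, a log2 fold change of 0.90 with an adjusted p of 2.19e-05.

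ZNF160, a KRAB protein reported to repress the innate immune receptor TLR4, was above the filter's level in every library of both groups and rose with the smallest adjusted p of the members called higher. It had 7.18, 6.90 and 5.58 CPM in OE_CD51_ICD, against 2.84, 3.04 and 2.30 CPM in NC, a fold of 2.40 (log2 1.26, SE 0.22, edgeR adjusted p = 1.47e-05). The groups were well apart, and OE_CD51_ICD replicate 3 was the lowest of its group. ZNF44 had 1.38, 1.71 and 1.79 CPM in OE_CD51_ICD and 0.289, 0.779 and 0.541 CPM in NC, with a fold of 3.07 and an adjusted p of 0.00177. ZNF493 had 1.45, 1.91 and 1.65 CPM in OE_CD51_ICD and 0.752, 0.496 and 0.743 CPM in NC, with a fold of 2.48 and an adjusted p of 0.00508. Both are KRAB zinc finger genes, and in both every OE_CD51_ICD library was above every NC library.

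ZNF555 had 2.90, 3.08 and 2.07 CPM in OE_CD51_ICD and 1.79, 0.779 and 0.811 CPM in NC, with a fold of 2.32 and an edgeR adjusted p of 0.00357. Its NC replicate 1 came close to OE_CD51_ICD replicate 3. ZNF471 had 1.65, 2.05 and 1.57 CPM in OE_CD51_ICD and 0.752, 0.850 and 0.743 CPM in NC, with a fold of 2.24 and an adjusted p of 0.00853, and DESeq2 did not call it, at 0.0503. ZNF527 had 2.24, 1.64 and 1.14 CPM in OE_CD51_ICD and 0.810, 0.850 and 0.406 CPM in NC, with a fold of 2.42 and an adjusted p of 0.00895. Its call was lost without OE_CD51_ICD replicate 1, at an adjusted p of 0.0866, and without NC replicate 3, at 0.0592. ZNF536 is a gene without the KRAB pattern that is known to restrain neuronal differentiation. It had 3.29, 3.42 and 4.29 CPM in OE_CD51_ICD and 1.68, 1.91 and 1.28 CPM in NC, with a fold of 2.25 and an adjusted p of 0.000686. Of its 50-base stretches, 17.4% were shared with other genes, and 13.4% of its exon bases overlapped AC011504.1 and AC005597.1.

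The falls were found mostly in genes without the KRAB pattern and at higher levels. KLF16, a Krüppel-like factor, had 43.1, 45.7 and 53.9 CPM in OE_CD51_ICD, against 76.1, 66.9 and 71.4 CPM in NC. The groups did not overlap, and the level was 1.51-fold lower (log2 -0.59, SE 0.10, edgeR adjusted p = 8.72e-06), and 16.3% of the exon bases of KLF16 overlapped AC012615.3. KLF2, a Krüppel-like factor known from the response of endothelium to blood flow, had 9.94, 11.003 and 15.9 CPM in OE_CD51_ICD and 20.9, 18.1 and 21.9 CPM in NC, with a log2 fold change of -0.73 and an adjusted p of 0.000234. OE_CD51_ICD replicate 3 was nearest to NC in both genes. ZNF574 had 24.7, 26.4 and 29.04 CPM in OE_CD51_ICD and 35.4, 35.5 and 44.0 CPM in NC, with a log2 fold change of -0.52 and an adjusted p of 0.000337.

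ZNF324B, at chr19:58451604-58457833, is one of the 2 members with the KRAB pattern that fell. It had 4.34, 3.96 and 5.01 CPM in OE_CD51_ICD, against 8.91, 7.15 and 8.52 CPM in NC, and was 1.85-fold lower (log2 -0.89, SE 0.19, edgeR adjusted p = 0.00025), with no overlap between the groups. It shared 17.3% of its 50-base stretches with ZNF324, so counts of that pair may not be fully separate. The other, ZNF793, had 0.922, 1.30 and 0.644 CPM in OE_CD51_ICD and 2.08, 1.91 and 1.76 CPM in NC, with a log2 fold change of -0.999 and an adjusted p of 0.0198. Its call was lost without NC replicate 1 (adjusted p 0.0637), OE_CD51_ICD replicate 1 (0.0635) or OE_CD51_ICD replicate 3 (0.0957). DESeq2 did not call ZNF793, and 8.20% of its exon bases overlapped AC022148.1 or ZNF793-AS1.

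**Figure D5:**
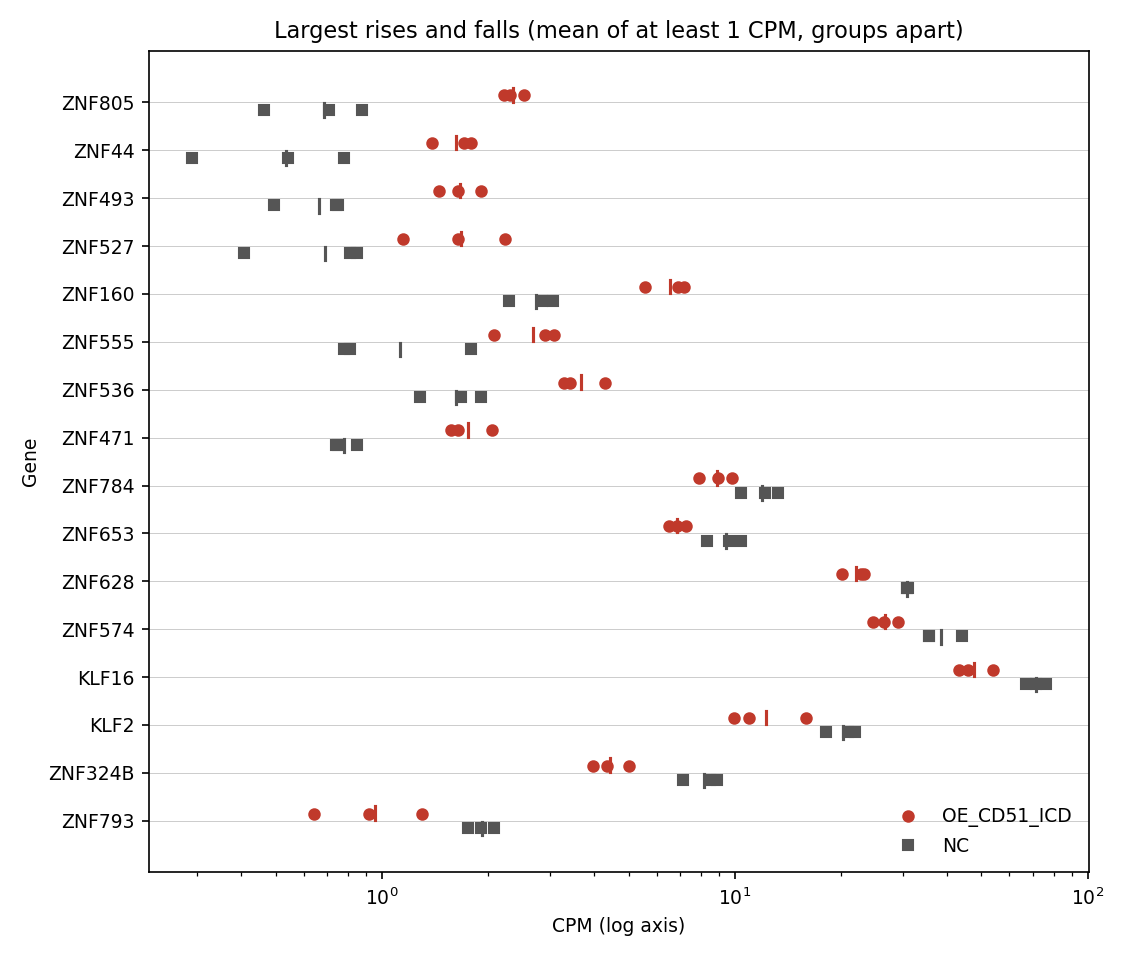
CPM on a log axis of the 8 largest rises and the 8 largest falls among called members that averaged at least 1 CPM over the 6 libraries and whose groups do not overlap, 1 point per library, OE_CD51_ICD in red above NC in grey, short lines at the group means. Of the 8 genes that rose 7 had an NC mean under 2 CPM, while KLF16 and ZNF574 averaged 47.5 and 26.7 CPM in OE_CD51_ICD and 71.5 and 38.3 CPM in NC.

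The clusters are taken from the end of the short arm to the end of the long arm, in coordinates of GRCh38 as the deposited table gives them. Cluster 1 ran from ZNF554 to ZNF77 (chr19:2819874-2944971) and held 5 members, of which 4 were tested. ZNF555 was the one that rose. ZNF554, the most highly expressed, was not called, with 5.79, 4.24 and 4.72 CPM in OE_CD51_ICD and 4.51, 4.96 and 3.99 CPM in NC. Cluster 2, from ZNF558 to ZNF846 (chr19:8806170-9793180), held 13 members, of which 9 were tested, 4 rose and 5 were not called, with a median log2 fold change of 0.52. The 4 were ZNF266, ZNF426, ZNF561 and ZNF562, all read on the minus strand. They are not an unbroken run: ZNF560, not tested, lies between ZNF266 and ZNF426, and ZNF121, tested and not called with a log2 fold change of -0.32, lies between ZNF426 and ZNF561. ZNF426 had 10.3, 11.8 and 10.3 CPM in OE_CD51_ICD and 6.13, 7.01 and 8.11 CPM in NC, with a log2 fold change of 0.61 and an edgeR adjusted p of 0.00332, and kept its call in every setting. ZNF317, the most highly expressed of the cluster, had 33.0, 30.5 and 28.3 CPM in OE_CD51_ICD and 28.0, 31.1 and 33.5 CPM in NC, which overlap.

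Cluster 3, from ZNF653 to KLF1 (chr19:11483427-12887199), held 29 members, of which 19 were too low to test. Of the 10 tested, 4 rose (ZNF627, ZNF491, ZNF44 and ZNF791) and 1 fell (ZNF653), with a median of 0.62. ZNF653, reported as a repressor of the nuclear receptor SF-1, had 6.85, 6.49 and 7.30 CPM in OE_CD51_ICD and 9.60, 8.35 and 10.4 CPM in NC, with a log2 fold change of -0.46 and an edgeR adjusted p of 0.0245. Its adjusted p was 0.0536 to 0.0817 without NC replicate 1 or 3 or OE_CD51_ICD replicate 1 or 2, and 19.3% of its 50-base stretches were shared, first with AC008481.3, and 14.5% of its exon bases overlapped AC008481.3 or ECSIT. ZNF491 had 0.922, 0.752 and 0.715 CPM in OE_CD51_ICD and 0.116, 0.354 and 0.473 CPM in NC, with a log2 fold change of 1.36 and an adjusted p of 0.0351. It lost its call without any one library but NC replicate 3, at 0.0544 to 0.202, and 6.66% of its exon bases overlapped AC008543.5.

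Cluster 4, from ZNF101 to ZNF254 (chr19:19668796-24129961), held 35 members, 33 of them with the KRAB pattern, and 22 were not tested. Of the 13 tested, 2 rose, the neighbours ZNF708 and ZNF493, and 11 were not called, with a median of 0.36. ZNF708 had 2.96, 2.39 and 3.79 CPM in OE_CD51_ICD and 1.504, 1.98 and 1.15 CPM in NC, with a log2 fold change of 0.98 and an edgeR adjusted p of 0.00702. Without OE_CD51_ICD replicate 3, its highest library, the adjusted p was 0.0505. ZNF91, which is known to silence SVA and LINE-1 retrotransposons and held the most fingers of the tested members, at 31, was not called. It had 2.37, 2.53 and 2.65 CPM in OE_CD51_ICD and 3.53, 1.77 and 1.89 CPM in NC, with a log2 fold change of 0.05 (SE 0.29). ZNF101, the most highly expressed of the cluster, had 4.94, 3.55 and 4.36 CPM in OE_CD51_ICD and 5.09, 4.18 and 3.18 CPM in NC, which overlap.

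Cluster 5, from ZNF302 to ZNF792 (chr19:34677639-34964049), held 5 members, of which 4 were tested. ZNF302 rose, with 4.61, 5.60 and 4.08 CPM in OE_CD51_ICD and 2.55, 2.55 and 1.62 CPM in NC, a log2 fold change of 1.08 and an edgeR adjusted p of 0.000592, kept in every setting. It shared 11.8% of its 50-base stretches with other genes, first among them its neighbour ZNF181. ZNF792 was not called, with 3.88, 4.44 and 3.29 CPM in OE_CD51_ICD and 2.43, 3.75 and 3.04 CPM in NC.

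Cluster 6, from OVOL3 to ZNF573 (chr19:36111151-37817300), held 31 members, of which 25 were tested, 5 rose (ZNF565, ZFP82, ZNF260, ZNF382 and ZNF527) and 1 fell (ZNF793), with a median of 0.33. ZFP82 had 0.988, 1.57 and 1.502 CPM in OE_CD51_ICD and 0.463, 0.566 and 0.743 CPM in NC, with a log2 fold change of 1.19 and an edgeR adjusted p of 0.0175. Its adjusted p was 0.0546 to 0.0799 without NC replicate 1 or 2 or OE_CD51_ICD replicate 2 or 3, and DESeq2 did not call it. HKR1, the most highly expressed member of the cluster, had 18.96, 19.4 and 19.5 CPM in OE_CD51_ICD and 20.8, 25.3 and 23.1 CPM in NC. Its groups did not overlap, but the adjusted p was 0.0837. HKR1 was called lower where libraries were scaled by size alone and where the GC or gene length trend was removed.

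Cluster 7, from ZNF575 to ZNF180 (chr19:43525497-44500524), held 22 members, of which 16 were tested, 5 rose and 1 fell, with a median of 0.56. It is the cluster of the printed fingers and of the 11 promoters that hold both motifs. Of the 4 neighbours there that rose, ZNF224 and ZNF225 were above the filter's level throughout OE_CD51_ICD but not throughout NC. Their NC libraries alone would not have let them be tested. ZNF234 and ZNF226 were above that level in every library. ZNF224, a KRAB repressor reported to act on the aldolase A gene, had 1.65, 2.53 and 1.57 CPM in OE_CD51_ICD and 0.579, 1.27 and 0.811 CPM in NC, a log2 fold change of 1.13 and an edgeR adjusted p of 0.0132. Its exons overlapped AC021092.1 over 40.5% of their bases, and use of strand in the counting is not given in the sources used here. The call was lost without NC replicate 1 (adjusted p 0.0839) or OE_CD51_ICD replicate 2 (0.0981). ZNF225 had 1.45, 1.71 and 0.930 CPM in OE_CD51_ICD and 0.694, 0.425 and 0.946 CPM in NC, so the libraries numbered 3 of both groups lay together, with an adjusted p of 0.0491 that was 0.102 to 0.203 without NC replicate 1 or 2 or OE_CD51_ICD replicate 1 or 2.

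ZNF234 was the steadiest of the 4 neighbours, with 3.36, 3.14 and 3.36 CPM in OE_CD51_ICD, against 1.68, 1.84 and 1.76 CPM in NC. Its log2 fold change was 0.90 (SE 0.27, edgeR adjusted p = 0.00559), and it was called in every setting. ZNF226 had 4.28, 5.40 and 5.01 CPM in OE_CD51_ICD and 3.88, 3.19 and 2.91 CPM in NC, with a log2 fold change of 0.55 and an adjusted p of 0.0388, which was 0.0705 to 0.116 without NC replicate 2 or 3 or OE_CD51_ICD replicate 2 or 3. Next along, ZNF227 had a log2 fold change of 0.60 and was not called, at an adjusted p of 0.0935. Only ZNF234 of the 4 thus kept its call whichever library was left out, and with the GC trend removed it was likewise the one that was still called. In the same cluster ZNF576, the most highly expressed, fell to 11.1, 9.70 and 14.4 CPM in OE_CD51_ICD, against 16.5, 16.8 and 14.1 CPM in NC. Its groups overlapped, its adjusted p of 0.0226 became 0.0615 to 0.139 without NC replicate 1 or 2 or OE_CD51_ICD replicate 1 or 2, and 8.90% of its 50-base stretches were shared, first with SRRM5.

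Cluster 8, from ZNF175 to ZNF331 (chr19:51571298-53580269), held 37 members, 36 of them with the KRAB pattern. Of 29 tested, 7 rose (ZNF175, ZNF350, ZNF614, ZNF432, ZNF841, ZNF528 and ZNF160) and 22 were not called, with a median of 0.34. ZNF175, also known as OTK18 and reported to act against HIV in macrophages, had 9.48, 12.4 and 7.37 CPM in OE_CD51_ICD and 6.07, 5.45 and 4.39 CPM in NC. Its log2 fold change was 0.87, with an edgeR adjusted p of 0.000448, and like ZNF160 it was called in every setting. The other 5 rises of the cluster were lost in several of the settings that leave out 1 library, with adjusted p between 0.0569 and 0.154.

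Cluster 9, from ZNF628 to MZF1 (chr19:55476332-58573575), held 72 members, of which 59 were tested, 14 rose and 5 fell, with a median of 0.19. The falls were those of ZNF628, ZNF784, ZNF581, ZNF787 and ZNF324B, and 4 of these 5 lie near the start of the cluster and carry no KRAB pattern. ZNF628 had 23.2, 20.1 and 22.8 CPM in OE_CD51_ICD and 30.7, 30.9 and 30.8 CPM in NC, with a log2 fold change of -0.48 and an edgeR adjusted p of 0.000653, but it was not called with the GC trend removed, where the adjusted p was up to 0.282. ZNF784 had 8.95, 7.93 and 9.80 CPM in OE_CD51_ICD and 13.2, 12.2 and 10.4 CPM in NC, with an adjusted p of 0.0271 that was 0.0705 to 0.117 without NC replicate 1 or 2 or OE_CD51_ICD replicate 1 or 2. ZNF581 had 48.3, 44.3 and 51.4 CPM in OE_CD51_ICD and 54.9, 52.3 and 63.3 CPM in NC, with a log2 fold change of -0.24 and an adjusted p of 0.0398. It was not called without NC replicate 3 (0.205) or OE_CD51_ICD replicate 1 (0.121) or 2 (0.179), and 23.4% of its exon bases overlapped ZNF580 or CCDC106.

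ZNF787 had 44.3, 44.5 and 57.5 CPM in OE_CD51_ICD and 62.3, 61.9 and 58.5 CPM in NC, with a log2 fold change of -0.32 and an edgeR adjusted p of 0.00924. Its OE_CD51_ICD replicate 3 lay close to NC, the adjusted p was 0.105 without OE_CD51_ICD replicate 1 and 0.0640 without replicate 2, and with the GC trend removed the log2 fold change was 0.02. ZNF580, which overlaps ZNF581, was not called, with 49.7, 43.5 and 49.4 CPM in OE_CD51_ICD and 47.5, 48.6 and 45.7 CPM in NC, but with the GC trend removed it was called higher, with a log2 fold change of 0.22 and an edgeR adjusted p of 0.0201. Further along, ZNF550 had 2.63, 3.14 and 2.43 CPM in OE_CD51_ICD and 1.16, 1.56 and 1.22 CPM in NC, with a log2 fold change of 1.07, an adjusted p of 0.00403 and a call in every setting, and 9.30% of its exon bases overlapped ZNF549. ZFP28 had 4.02, 4.85 and 3.22 CPM in OE_CD51_ICD and 2.89, 2.41 and 2.30 CPM in NC, with an adjusted p of 0.0268 that was 0.0566 to 0.128 without NC replicate 2 or 3 or OE_CD51_ICD replicate 1 or 2. ZNF274, known to bind the 3′ ends of zinc finger genes and bring SETDB1 to them, was not called, with 18.0, 18.9 and 20.5 CPM in OE_CD51_ICD and 16.1, 20.7 and 15.7 CPM in NC (log2 fold change 0.13, SE 0.14).

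Of the 18 scattered members 15 were tested, 5 rose and 4 fell, with a median of -0.08. The rises were those of ZNF536, TSHZ3, ZNF507, ZNF780B and ZNF780A. The last 2 are neighbours with the KRAB pattern, and their calls were lost without OE_CD51_ICD replicate 1 for ZNF780B (edgeR adjusted p 0.0650) and without OE_CD51_ICD replicate 2 for ZNF780A (0.0519). TSHZ3, a teashirt zinc finger factor known from smooth muscle and neuronal development, had 20.6, 22.1 and 21.0 CPM in OE_CD51_ICD and 11.2, 14.1 and 13.5 CPM in NC, with a log2 fold change of 0.72 and an adjusted p of 5.79e-05 that held in every setting. The falls were those of KLF16, KLF2, ZNF574 and ZNF358. ZNF358 had 54.6, 56.0 and 59.5 CPM in OE_CD51_ICD and 69.1, 62.7 and 65.6 CPM in NC, with a log2 fold change of -0.22 and an adjusted p of 0.0466. Its call was lost without any one library but OE_CD51_ICD replicate 3, at 0.0613 to 0.238, its log2 fold change was 0.11 with the GC trend removed, and 34.4% of its exon bases overlapped AC008878.1 or AC008878.4.

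Duplicated genes share sequence, so counts of some members may hold reads of others. Of the 60 called members, 27 shared more than 5% of their 50-base stretches with other genes or overlapped other exons over more than 5% of their bases. Of the 97 tested members at or under both limits, 28 rose and 5 fell, with a median log2 fold change of 0.34, close to the 0.36 of all 184.

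The partners through which KRAB proteins act, and the enzymes and readers of the heterochromatin on these clusters, were given as a list of 45 names, of which 44 matched a gene and all 44 were tested. Of these 11 rose, 10 fell and 23 were not called, with a median log2 fold change of -0.04, beside the 25.2% and 25.8% of all genes. The rises dropped to 6 without NC replicate 2 and to 7 without OE_CD51_ICD replicate 1 or 2. TRIM28, the corepressor that KRAB domains bind, had 566, 525 and 619 CPM in OE_CD51_ICD, against 980, 901 and 911 CPM in NC. The groups were far apart, with a log2 fold change of -0.71 (SE 0.08, edgeR adjusted p = 1.35e-08), and TRIM28 fell in every setting. TRIM28, like UHRF1 and DNMT1 below, is itself among the other protein-coding genes of chromosome 19, of which 350 of 677 tested fell. SETDB1, the methyltransferase that TRIM28 brings, was not called, with 25.3, 29.4 and 23.7 CPM in OE_CD51_ICD and 25.6, 23.9 and 30.1 CPM in NC. CBX5, which encodes heterochromatin protein HP1 alpha, was not called, with 113, 117 and 105 CPM in OE_CD51_ICD and 114, 102 and 104 CPM in NC, though with the GC or gene length trend removed it was called lower.

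Within the list the largest fall was that of UHRF1, which guides DNA methylation to newly made strands, with 19.4, 19.1 and 22.6 CPM in OE_CD51_ICD, against 71.4, 71.6 and 69.0 CPM in NC (log2 fold change -1.80, edgeR adjusted p = 5.16e-15). Its partner DNMT1, the maintenance DNA methyltransferase, fell to 116 ± 5.44 CPM in OE_CD51_ICD, against 231 ± 12.1 CPM in NC (SD, n = 3 each), with a log2 fold change of -0.99 in the edgeR fit. SUV39H1, an H3 lysine 9 methyltransferase, fell to 8.40 ± 2.65 CPM in OE_CD51_ICD, against 25.4 ± 1.66 CPM in NC, with a log2 fold change of -1.60. The largest rise was that of ATRX, a chromatin remodeller found on zinc finger gene clusters, with 23.1, 30.3 and 19.6 CPM in OE_CD51_ICD, against 17.8, 13.9 and 12.8 CPM in NC (log2 fold change 0.71, adjusted p = 0.000238). DAXX, which acts with ATRX in laying down histone H3.3, fell, with a log2 fold change of -0.57. ATF7IP, the cofactor of SETDB1, rose, with a log2 fold change of 0.51, but it was not called with the gene length trend removed (edgeR adjusted p 0.0655). DNMT1, SUV39H1, DAXX and ATF7IP were named after their values were seen. No group of these changes was tested against the change of the zinc finger genes.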

How the data were processed

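RNA libraries were made with a SMARTER mRNA-seq kit from RNA taken with either of the reagents named in the protocols, per the labels' protocols. The authors deposited whole-number counts per gene and FPKM values, the second of them per the listed gene length, for the same 6 libraries, with Ensembl IDs, coordinates and a transcription factor family per the file headers. The build is hg38, per the submitters' processing notes, and no aligner, counting program or setting for strand is given in the sources used here. All 58735 IDs and coordinates matched GENCODE 29.

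For the test on the deposited counts, edgeR 4.0.16 ran in R 4.3.3 (filterByExpr, TMM, glmQLFit and glmQLFTest, two-sided), and Benjamini-Hochberg adjustment ran over all 13787 genes tested. Calls needed an adjusted p under 0.05. The dispersion was 9.44% as a biological coefficient of variation. Total counts ran from 13616694 to 16934668 per library, and levels rest on counts, so their error covers counting and library spread only. Tested on simulated data of this comparison (13787 genes, 200 changed), the fit recovered 73% of the genes given a log2 change of 1, 95% of the genes given a change of 2, and made 3.45% false calls. The changed genes were drawn from all levels, and far fewer were changed than the 51.0% called in the real data. The tested members had a median of 2.53 CPM, against 15.9 CPM over all genes tested, and recovery among them was not measured.

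KRAB and C2H2 finger patterns were read from GENCODE 29 reading frames, GC content from the longest transcript, and shared sequence as 50-base stretches also found in another gene. Alternatives were other scalings, limma-voom (limma 3.58.1), DESeq2 1.42.0, other filters, log2 of FPKM plus a pseudocount of 1 or 0.1, GC and length trends removed, each library left out, and replicate number as a block. The genes named are the 8 largest rises and falls with at least 1 CPM and groups that do not overlap, per cluster the highest by FPKM and the largest remaining call each way, the 5 highest by FPKM of all members, the one with most fingers, ZNF274, ZFP28 and ZNF91, ITGAV and named corepressors. The members and lists were chosen with earlier results of these data known. The 2 pseudogene rows of the family on chromosome 19 were left out.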

Additional observations from a re-analysis of the deposited data

How the results depend on the processing

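The counts of members that rose or fell were within 1.5 times of 48 and 12 under most settings. The rises were 25 by DESeq2, 30 with the GC trend removed and 27 with the replicate block and the GC trend removed. Over all genes the rises were 3021, 3100 and 2995 in these settings. The falls were 7 by DESeq2 and 7 with the block and the GC trend removed, beside 3306 and 3680 over all genes. Leaving out 1 library gave 29 to 49 rises, 5 to 13 falls and 10 to 22 rises of at least 2-fold. Over all genes the rises then ran from 3007 to 3641 and the falls from 2936 to 3654. Changes of at least 2-fold over all genes were counted for the main fit only. Rises of at least 2-fold numbered 0 on log2(FPKM + 1) and 2 on log2(FPKM + 0.1), pseudocounts that shrink changes of low genes by construction, and 7 with the GC trend removed, with or without the block. Falls of at least 2-fold numbered 1 with library size only, limma-voom, no low-count filter, the GC trend, the gene length trend, the block, or the block and the GC trend removed, and 0 to 2 without 1 library. The members' median was 0.074 on log2(FPKM + 1), 0.20 with the GC trend removed and 0.19 with the block besides. In the corepressor list the rises were 6 with library size only, 7 by DESeq2, 7 with no low-count filter, 7 on log2(FPKM + 0.1), 6 with the GC trend removed, 5 with the gene length trend removed, 6 with the block and the GC trend, and 6 to 11 without 1 library, and the falls were 18 with the GC trend removed and 17 with the block besides. With gaps of at most 250 kb, 1 cluster had more falls than rises. Except where a pseudocount explains it, the cause was not tested.

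With the GC trend removed, the log2 fold change was 0.11 for ZNF358, 0.017 for ZNF787, -0.16 for CBX5 and -0.027 for RBBP7, and with the block besides it was 0.11 for ZNF358, 0.014 for ZNF787 and -0.027 for RBBP7. With the gene length trend removed it was -0.24 for CBX5. Same-numbered libraries correlated at -0.05, 0.00 and 0.05 in their deviations from the group means, so the numbers were not taken as pairs. With the replicate block alone 45 members rose and 11 fell. SCAN and BTB signatures were not run. Of the 184 tested members 135 lay under 5 CPM, where the median standard error of their log2 fold changes was 0.33, the same as over all genes at that level and above the 0.14 over genes of any level, which limits what could be called there.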

Other observations

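Within cluster 9 a further set of KRAB zinc finger genes, named after their values were seen, rose in OE_CD51_ICD in every setting tried. ZNF304, reported to direct silencing of the INK4-ARF locus, had 6.25, 6.90 and 6.65 CPM in OE_CD51_ICD, against 3.53, 3.96 and 3.99 CPM in NC, with a log2 fold change of 0.79 and an edgeR adjusted p of 0.00132, and 5.88% of its exon bases overlapped AC005261.2. ZNF776 had 6.06, 6.01 and 4.94 CPM in OE_CD51_ICD, against 3.76, 2.97 and 3.38 CPM in NC, with an adjusted p of 0.00422, and 11.5% of its exon bases overlapped AC003006.1. ZNF544 had 20.6, 20.5 and 19.2 CPM in OE_CD51_ICD, against 14.7, 12.3 and 15.3 CPM in NC, with an adjusted p of 0.00227, and 13.0% of its exon bases overlapped AC020915.5 or AC020915.3. ZNF587 had 14.6, 16.3 and 14.7 CPM in OE_CD51_ICD, against 8.68, 10.1 and 9.39 CPM in NC, with an adjusted p of 0.000276, though it shared 20.2% of its 50-base stretches with other genes, first among them ZNF417, and 35.0% of its exon bases overlapped ZNF814 or AC010522.1. The groups did not overlap in any of these 4 genes.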
